A study of Mus musculus with 11 samples.

Results

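The respiratory chain of the inner mitochondrial membrane is built from 4 multi-subunit complexes. Complex I (NADH dehydrogenase) and complex II (succinate dehydrogenase) pass electrons to ubiquinone, complex III (cytochrome bc1) passes them on to cytochrome c, and complex IV (cytochrome c oxidase) hands them to oxygen, while I, III and IV pump the protons that drive ATP synthase. Most subunits are encoded in the nucleus and imported, and a few are encoded by mitochondrial DNA and made inside the organelle. Normal secretory prostate epithelium is known for accumulating citrate and zinc, and for a tricarboxylic acid cycle that is held back at aconitase.

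The mRNAs of the nuclear-encoded subunits were followed in mouse prostate. Members were chosen by gene symbol alone: the Ndufa, Ndufb, Ndufc, Ndufs and Ndufv genes without the Ndufaf assembly factors, Sdha to Sdhd, the Uqcr genes, and the Cox4i, Cox5, Cox6, Cox7 and Cox8 genes. This gave 68 of the 29291 gene loci listed. Of these, 60 encode the subunits found in most tissues, 36 in complex I, 4 in complex II, 8 in complex III and 12 in complex IV, with Ndufa4 counted in complex IV, to which it is known to belong. The other 8 are tissue-restricted isoforms or paralogs of complex IV subunits: Cox4i2, Cox6a2, Cox6b2, Cox7a1, Cox7b2, Cox8b, Cox8c and Ndufa4l2.

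RNA was sequenced from whole prostates of 11 mice aged 15 months and labelled C57BL/6, in 4 genotypes. WT mice (n = 3) were littermates without the alleles below. Pb-ERG mice (n = 3) carried a TMPRSS2-ERG transgene driven by the probasin promoter, which is active in prostate epithelium, and the study calls them Pb-T2-ERG. Trp53pcR172H/- mice (n = 2, after the study left out 1 of low quality) carried 1 Trp53 allele with the R172H mutation and 1 floxed allele, both switched by a probasin-driven Cre, so that prostate epithelial cells hold a mutant and a deleted copy while the other cells keep their alleles. Pb-ERG;Trp53pcR172H/- mice (n = 3), called double-mutant here, carried all of these, and the study describes neoplastic lesions and adenocarcinoma in this genotype at this age. Nothing in the labels says more about the relation between mice of a group, so p-values measure the spread between these libraries.

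Levels are given as FPKM, the fragments of a gene scaled by its exon length and by the total fragments of the library, as deposited. The totals behind them were 14280978 to 51965100 fragments per library. Erg was at 5.81 to 11.5 FPKM in the Pb-ERG and 6.65 to 19.6 in the double-mutant libraries, against 0.441 to 0.851 in the other 5. Trp53 was at 2.55 to 7.73 in all 11, which does not tell mutant from normal transcripts. Several libraries stood apart. In Pb-ERG replicate 2, only 60.3% of the fragments fell in the listed loci, against 74.8% in double-mutant replicate 2 and 86.4% to 95.5% in the other 9. The small RNA share is the sum of the non-coding RNAs Rn7sk, Rpph1 and Rmrp. They took 4.67% to 10.3% of the fragments in WT replicate 2, Trp53pcR172H/- replicate 2 and all 3 double-mutant libraries. In the other 6 they took 0.886% to 1.77%, and the small RNA class used below splits the libraries at 4%. Between the double-mutant and Pb-ERG groups alone, this split and the genotype cannot be told apart. Tissue composition moved with genotype as well. All 8 smooth muscle markers fell in the double-mutant group, their summed FPKM going from 1272 to 1802 in WT to 83.9 to 454, and the sum of 9 luminal markers went from 10015 to 18765 to 1775 to 3186, with 3 of the 9 lower and 1 higher by the test used below. All 4 proliferation markers rose, their sum going from 2.76 to 3.95 to 26.1 to 43.6, as did all 4 endothelial markers, whose sum went from 9.50 to 14.4 to 26.8 to 45.8. Seminal vesicle transcripts, which enter with adjoining tissue, summed to 285 to 12240 in WT, 66.3 to 28069 in Pb-ERG and 93.7 to 704 in the double-mutant libraries. The part of these differences in the subunit values was not tested. In whole tissue, fewer cells of a type and less RNA per cell cannot be told apart.

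In WT prostate the 60 common subunits were all expressed, over a wide range. The highest mean was that of Cox4i1, the largest nuclear-encoded subunit of complex IV, with 580 ± 136 FPKM (SD, n = 3). Uqcrh, the hinge protein of complex III, had 374 ± 123 and Ndufa1, a membrane-arm subunit of complex I, 373 ± 73.6. The lowest were Ndufab1, the mitochondrial acyl carrier protein that sits in complex I, with 3.29 ± 0.284, Ndufs5 with 6.20 ± 4.97 and Ndufb2 with 10.4 ± 2.98. For Ndufab1 and Ndufb2 the exon length behind the FPKM was 4387 and 4375 bases, since annotated long transcripts are merged into 1 length, which lowers their FPKM beside that of other subunits. Median FPKM rose from complex I (46.4 ± 4.74 over the 3 WT libraries) to II (64.5 ± 9.22), III (102 ± 4.76) and IV (162 ± 33.8), and the ranges of complexes I and II overlapped neither that of III nor that of IV.

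Sequence upstream of these genes is shown because nuclear respiratory factor 1 (NRF1) and ETS family factors are known regulators of respiratory genes, and ERG is itself an ETS factor. Promoter windows from 250 bases before to 50 bases after the RefSeq start (GRCm38.p6) were available for 54 of the 68 members, in 56 windows. The NRF1 letters CGCATGCG, on either strand, were found in 5 of the 54 members (8.93% of their windows, against 1.87% of all 32851 windows): Cox6a1, Ndufa8, Ndufa11, Uqcr11 and Uqcrc1. The ETS family letters CCGGAAGT were found in 4 members (7.14% of windows, against 3.89%): Cox8a, Ndufs3, Uqcr11 and Uqcrh. The YY1 letters AAGATGGCG, which lay past the transcription start in each case, were found in Ndufa9, Ndufc1, Ndufs4, Ndufs6 and Ndufs7 (8.93% against 1.40%). The CREB letters TGACGTCA were found in Ndufa10, Ndufa11, Ndufb2 and Uqcrfs1 (7.14% against 1.79%) and the E-box CACGTG in Ndufa7 and Ndufv1 (5.36% against 7.15%). In all, 18 members held at least 1 of the 5 motifs. No 2 of the motifs overlapped in a member, and a match is not a bound site.

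The stretches below run from 90 bases before to 30 bases after the start, 5′ to 3′ on the strand of the gene, with NRF1 and ETS family letters in capitals. The first 4 hold the ETS letters (Uqcr11 both), the next 2 the NRF1 letters, and the last 2 belong to the called members described below that have a window, in which none of the 5 motifs was found. The positions are chr19:7217587-7217706 (Cox8a, minus strand), chr2:90904692-90904811 (Ndufs3, minus), chr10:80406792-80406911 (Uqcr11, minus), chr4:116075041-116075160 (Uqcrh, minus), chr2:36049309-36049428 (Ndufa8, minus), chr17:56717672-56717791 (Ndufa11, plus), chr7:4753065-4753184 (Cox6b2, minus) and chr4:123718157-123718276 (Ndufs5, minus).
Cox8a: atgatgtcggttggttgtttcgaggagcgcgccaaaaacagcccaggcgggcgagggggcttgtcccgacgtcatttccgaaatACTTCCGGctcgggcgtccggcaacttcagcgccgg
Ndufs3: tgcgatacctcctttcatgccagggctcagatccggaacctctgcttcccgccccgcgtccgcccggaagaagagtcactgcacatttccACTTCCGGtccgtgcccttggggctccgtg
Uqcr11: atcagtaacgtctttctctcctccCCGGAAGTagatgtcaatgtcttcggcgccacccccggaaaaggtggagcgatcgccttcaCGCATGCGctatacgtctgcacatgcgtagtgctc
Uqcrh: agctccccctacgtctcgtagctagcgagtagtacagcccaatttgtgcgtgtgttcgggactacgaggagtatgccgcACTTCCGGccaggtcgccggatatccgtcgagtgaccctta
Ndufa8: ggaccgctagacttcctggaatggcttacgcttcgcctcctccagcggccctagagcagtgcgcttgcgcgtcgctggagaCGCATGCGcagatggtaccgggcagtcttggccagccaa
Ndufa11: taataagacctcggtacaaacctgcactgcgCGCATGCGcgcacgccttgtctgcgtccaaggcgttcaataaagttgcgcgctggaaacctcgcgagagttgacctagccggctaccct
Cox6b2: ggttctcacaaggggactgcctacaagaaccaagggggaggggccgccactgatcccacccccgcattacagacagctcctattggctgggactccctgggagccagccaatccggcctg
Ndufs5: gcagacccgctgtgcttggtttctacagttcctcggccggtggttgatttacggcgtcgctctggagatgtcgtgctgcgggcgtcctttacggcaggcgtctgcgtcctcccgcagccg

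The common subunits moved together from library to library. Measured as the deviation of log2(FPKM + 1) from the gene's own mean over the 11 libraries, the median of the 60 subunits was -1.0 in Pb-ERG replicate 2, where all 60 lay below their mean. It was 0.49 in Trp53pcR172H/- replicate 2 and 0.44 in double-mutant replicate 3, with 57 of 60 above their mean in both. In the other 8 libraries it lay between -0.18 and 0.22. The 4 complexes shared this pattern: in Pb-ERG replicate 2 the medians were -0.97 for complex I, -0.81 for II, -0.98 for III and -1.05 for IV. The 15583 genes tested had a median of -0.13 in that library, -0.19 in Trp53pcR172H/- replicate 2 and 0.03 in double-mutant replicate 3. The 17 nuclear-encoded ATP synthase genes had -1.0, 0.38 and 0.51 in these 3 libraries. The subunits encoded by mitochondrial DNA did not show the low values of Pb-ERG replicate 2, where the median of the 8 that passed the filter was 0.03, with 5 of 8 above their mean. Pb-ERG replicate 2 is also the library with the lowest share of fragments in listed loci, and Trp53pcR172H/- replicate 2 and double-mutant replicate 3 are the 2 with the highest small RNA share, 7.06% and 10.3%. Their part in the subunit levels was not tested.

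**Figure D1:**
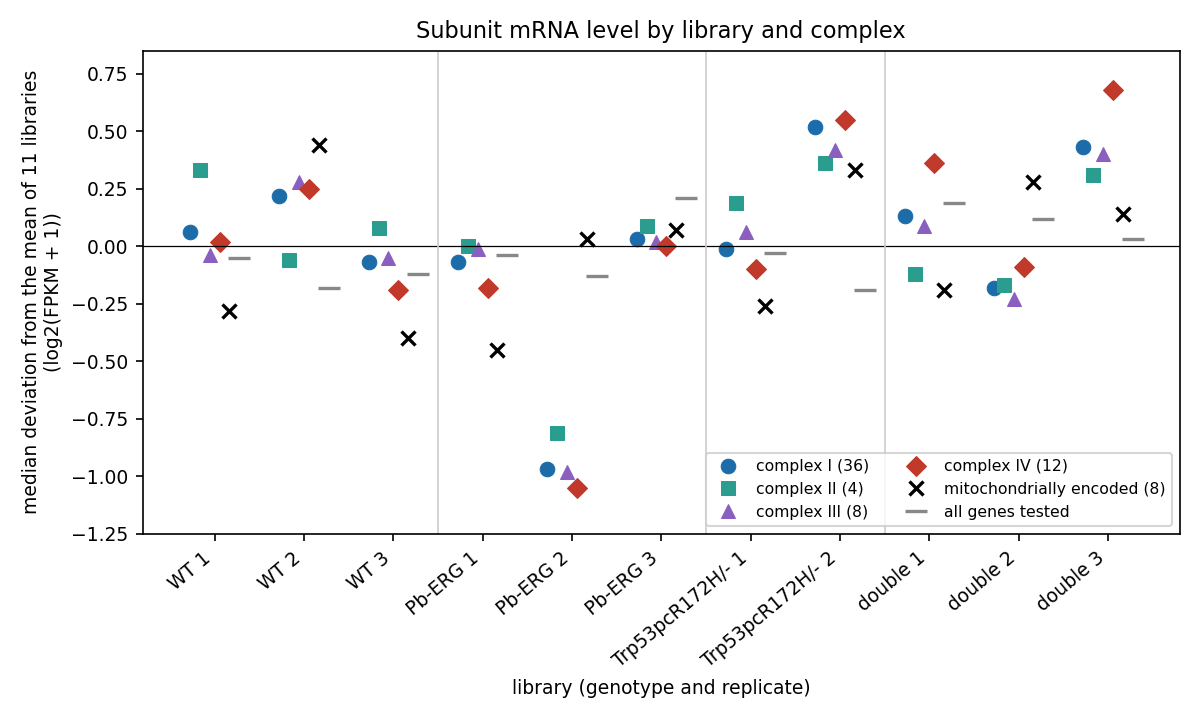
Median deviation of each complex's common subunits in each of the 11 libraries (x axis), in log2(FPKM + 1) from the gene's mean over all libraries (y axis), with the mitochondrially encoded subunits and all genes tested beside them and vertical lines between genotypes. All 4 complexes sit between -0.81 and -1.05 in Pb-ERG replicate 2, where the mitochondrially encoded subunits are at 0.03.

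The double-mutant prostate was compared with WT first. Few respiratory subunits reached an adjusted p under 0.05. With limma on log2(FPKM + 1) and Benjamini-Hochberg adjustment over all 15583 genes tested, 64 of the 68 members could be tested, and 2 of the 64 (3.12%) had an adjusted p under 0.05, both higher and both tissue-restricted paralogs of complex IV subunits. Neither reached an FPKM of 1 in any WT library. They entered the test, which needs FPKM 1 or more in at least 2 libraries, through groups in which they were high. Of all genes tested, 25.3% passed, 2969 higher and 976 lower. None of the 60 common subunits passed. Their median SE was 0.322, against 0.259 for all genes tested, so a larger change was needed for a call. At the threshold of 0.001 used by the study, 0 members and 3.96% of all genes passed. Without adjustment, 4 of 64 members had p under 0.05, against 38.3% of all genes.

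The levels of the double-mutant and WT libraries did not overlap in 8 of the 64 members (12.5%), against 44.8% of all genes tested. All 8 were higher in the double-mutant group: Cox6b2, Ndufa4l2, Cox7a1, Cox6c, Cox6a1, Cox5a, Ndufs8 and Ndufab1. Of these, Cox6b2 and Ndufa4l2 were tested only through groups in which they were high. The median log2 fold change of the 60 common subunits was 0.12, with 37 above 0 and 23 below, where the median of all genes tested was 0.25. By complex it was 0.04 for I, -0.19 for II, 0.06 for III and 0.30 for IV. For 34 of the 60, the 95% interval (on the 7 residual degrees of freedom) lay inside a 2-fold change either way, with 24 of 36 in complex I, 3 of 4 in II, 6 of 8 in III and 1 of 12 in IV. The sign of the 60-gene median depended on the scaling: it was -0.11 with median-of-ratios factors, -0.17 with trimmed-mean factors, -0.10 with the small RNA class as a covariate and -0.07 without double-mutant replicate 3. In each of these settings the subunits stayed below the median of all genes, which was 0.06, 0.01, 0.31 and 0.28 in the same order, whereas they lay just above it without double-mutant replicate 2 (0.26 against 0.23) and with no filter on low values (0.12 against 0.08).

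The catalytic core subunits of complex I described here did not pass. Ndufs1, which carries iron-sulfur clusters of the NADH-oxidising arm, was at 27.5, 18.9 and 26.9 FPKM in WT and at 25.8, 22.2 and 21.5 in the double-mutant libraries, so that the groups overlapped (log2 fold change -0.06, SE 0.237, interval -0.62 to 0.50). Ndufv1, which binds NADH and FMN, was at 42.1, 37.1 and 43.9 in WT and 36.3, 32.2 and 43.3 in the double-mutant libraries (-0.14, SE 0.265, interval -0.77 to 0.48). Further core subunits were Ndufs3 with -0.20, Ndufs7 with -0.19 and Ndufv2 with 0.01, all with adjusted p of at least 0.592. Another core subunit, Ndufs8, which holds iron-sulfur clusters near the quinone site, stood higher than these. It was at 43.9, 41.9 and 36.2 in WT and at 62.0, 49.3 and 77.2 in the double-mutant libraries with no overlap, a log2 fold change of 0.60 (SE 0.295) that did not pass (adjusted p = 0.162). The accessory subunit Ndufv3, named after its values were seen, went the other way with 43.6, 38.2 and 32.3 in WT and 25.5, 20.3 and 34.8 in the double-mutant libraries. These ranges overlap, and the difference did not pass (-0.51, SE 0.278, adjusted p = 0.201).

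Succinate dehydrogenase, which also belongs to the tricarboxylic acid cycle, was the complex with the lowest median, except with the small RNA class as a covariate (-0.08, against -0.14 for complexes I and III). The flavoprotein Sdha was at 64.4, 48.5 and 64.3 in WT and at 51.4, 46.5 and 40.1 in the double-mutant libraries, which overlap (-0.35, SE 0.252, adjusted p = 0.332). This was one of the values that scaling moved across the threshold, with -0.58 and an adjusted p of 0.0236 under median-of-ratios factors and -0.64 and 0.0325 under trimmed-mean factors. The membrane anchor Sdhc had a log2 fold change of -0.39 (SE 0.290), the iron-sulfur subunit Sdhb one of -0.03 (SE 0.343) and the other anchor, Sdhd, one of 0.11 (SE 0.322), none of which passed. In complex III, the core proteins Uqcrc1 (0.09) and Uqcrc2 (-0.09) and the Rieske iron-sulfur protein Uqcrfs1 (0.15) had adjusted p between 0.711 and 0.862. The largest value among the Uqcr genes, named after the values were seen, was that of Uqcr10, a small accessory subunit, with 0.49 (SE 0.386, adjusted p = 0.373).

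**Figure D2:**
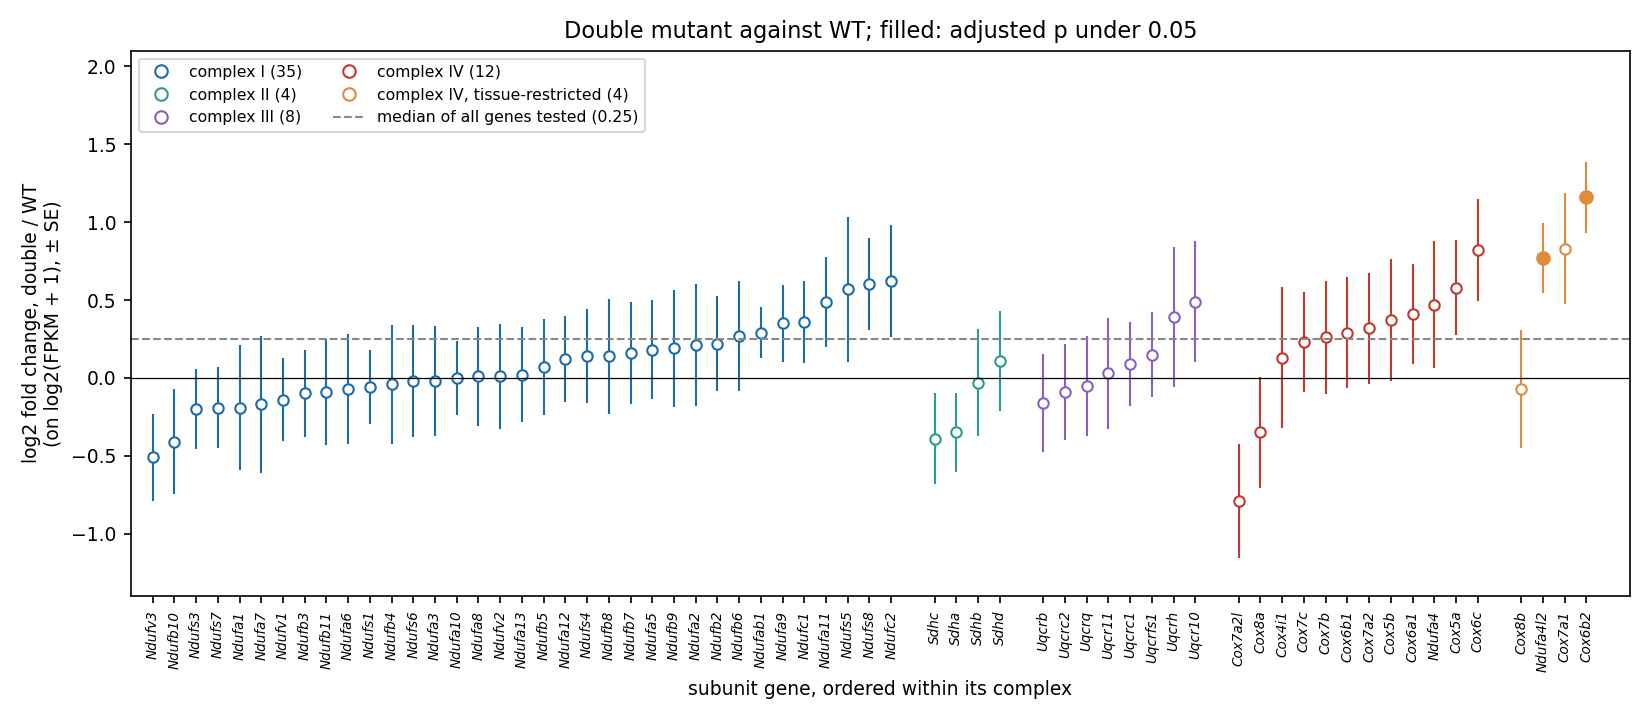
Log2 fold change (double-mutant over WT, on log2(FPKM + 1), y axis) with its standard error for 63 of the 64 members tested, ordered within each complex (x axis). Filled points mark adjusted p under 0.05, which only the tissue-restricted Cox6b2 (1.16) and Ndufa4l2 (0.77) reach, and the dashed line is the median of all genes tested. Both of these genes were tested only through groups in which they were high.

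Complex IV had the widest spread, from Cox7a2l at -0.79 to Cox6c at 0.82. Cox6c, an accessory subunit of the membrane part, was at 126, 162 and 98.6 FPKM in WT and at 237, 190 and 249 in the double-mutant libraries. Every double-mutant library lay above every WT library, and the difference did not pass over all genes (SE 0.329, adjusted p = 0.0920). Cox7a2l, also called SCAF1, links complexes III and IV into supercomplexes, and C57BL/6 mice are known to carry a shortened form of it. It was at 211, 185 and 118 in WT and at 87.3, 74.3 and 137 in the double-mutant libraries, where 1 library overlapped the WT range (SE 0.366, adjusted p = 0.139). Fragments of both genes can be shared with pseudogenes, of which 2 for Cox6c and 1 for Cox7a2l are at least 95% identical over at least 150 bases in GENCODE M21, and exons of Cox6c overlap Vps13b on the opposite strand.

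Other common subunits of complex IV showed smaller values. Cox4i1 was at 499, 737 and 504 in WT and 476, 518 and 986 in the double-mutant libraries, with a log2 fold change of 0.13 (SE 0.452). Cox5a was at 72.6, 78.2 and 83.4 in WT and at 117, 91.4 and 150 in the double-mutant group with no overlap, but 0.58 (SE 0.307) did not pass (adjusted p = 0.188). Cox5b, which binds zinc, had 0.37 (SE 0.393). Cox8a, a small subunit of the membrane part, was at 322, 269 and 273 in WT and at 212, 185 and 293 in the double-mutant libraries, with -0.35 (SE 0.357).

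Because the subunits shared the library effect, a fit with each library scaled to its own common subunits was added after the data were seen. It asks which subunits changed relative to the chain as a whole. In this fit 14.0% of all genes and 3 members passed at 0.05. Cox6c was higher (0.74, SE 0.198, adjusted p = 0.0283), Cox7a2l was lower (-0.86, SE 0.25, adjusted p = 0.0408) and Cox6b2 was higher (1.10, SE 0.307, adjusted p = 0.0346). The next were Ndufv3 at -0.58 (adjusted p = 0.0857) and Ndufs8 at 0.52 (adjusted p = 0.0894). On this scale the double-mutant and WT libraries did not overlap in 15 of the 60 common subunits, against 34.9% of all genes. The 8 that were higher were Ndufa11, Ndufc1, Ndufc2, Ndufs8, Uqcr10, Cox5a, Cox6c and Cox7a2. The 7 that were lower were Ndufa3, Ndufb3, Ndufb10, Ndufv3, Uqcrb, Cox7a2l and Cox8a.

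The tissue-restricted isoforms were rare transcripts beside their common counterparts. Cox7a1, the heart and skeletal muscle isoform of Cox7a2, reached the largest share of its pair, 1.38% to 4.69% of the summed FPKM over the 11 libraries. The others stayed under 1% in every library: Cox6b2, known from testis, at 0.0919% to 0.903%, Cox8b at 0% to 0.701%, Ndufa4l2 at 0.0903% to 0.673%, Cox4i2, known from lung, at 0.0529% to 0.324%, and Cox6a2, the muscle isoform, at 0% to 0.255%. Cox7b2 and Cox8c, both known from testis, had 0 to 5 and 0 to 1 fragments per library. With Cox4i2 and Cox6a2, these were the 4 members not tested, because fewer than 2 libraries reached an FPKM of 1.

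Cox6b2 (chromosome 7, 4751792 to 4753094, GRCm38) had the lowest adjusted p of all members. It was at 0.320, 0.415 and 0.427 FPKM in WT, at 0.75, 1.25 and 1.75 in Pb-ERG, at 0.343 and 0.850 in Trp53pcR172H/- and at 1.58, 2.63 and 2.18 in double-mutant prostate. The double-mutant libraries lay above all WT and Trp53pcR172H/- libraries and overlapped the Pb-ERG range. These values rest on 5 fragments in each WT library and on 22, 53 and 34 in the double-mutant ones. Cox6b2 reached an FPKM of 1 in Pb-ERG and double-mutant libraries only, so it passed the filter on low values through the groups in which it was high. The log2 fold change against WT was 1.16 (SE 0.229, adjusted p = 0.00448), and since it is taken on log2(FPKM + 1) at levels near 1 it understates the ratio: with a pseudocount of 0.1 it was 2.17. The call held with each library left out in turn, but not with a filter of FPKM 5 in 2 libraries, which removes the gene. Against Trp53pcR172H/- it was 0.98 (SE 0.256, adjusted p = 0.0272). That call was lost without either Trp53pcR172H/- library (0.75 and 1.21), without double-mutant replicate 2 (0.86), and with the small RNA class as a covariate (0.86, adjusted p = 0.0947). It also missed the threshold with no filter on low values (adjusted p = 0.0517), with the compared groups alone (0.0950) and with libraries scaled to the common subunits (0.106). In Pb-ERG, where the libraries also lay above WT, 0.67 did not pass (SE 0.229, adjusted p = 0.150).

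Ndufa4l2 (chromosome 10, 127514939 to 127517152), a paralog of Ndufa4 known as a target of hypoxia-inducible factor, was at 0.396, 0.576 and 0.264 in WT, 0.496, 0.481 and 0.736 in Pb-ERG, 0.696 and 1.09 in Trp53pcR172H/- and, with both sets of alleles, 1.16, 2.19 and 0.992. It had 4 to 9 fragments per library in WT and 20 to 57 in the double-mutant group. The double-mutant libraries lay above WT by 0.77 on the log2 scale (SE 0.225, adjusted p = 0.0293). The call was lost without any 1 of the 3 WT libraries (adjusted p from 0.0508 to 0.111), without double-mutant replicate 2 (0.56, adjusted p = 0.108) with the small RNA class as a covariate (0.59, adjusted p = 0.194), with the compared groups alone (adjusted p = 0.0512) and with libraries scaled to the common subunits (0.74, adjusted p = 0.113). Ndufa4l2 reached an FPKM of 1 in double-mutant replicates 1 and 2 and Trp53pcR172H/- replicate 2 only, so it passed the filter on low values through the group in which it was high. Its locus shares 30 bases with that of Shmt2 on the opposite strand, and the FPKM of Shmt2 was 9.96 ± 2.56 (WT) and 13.2 ± 4.52 (double-mutant), with an adjusted p of 0.384. Ndufa4l2 and Cox4i2 are also known as transcripts of pericytes, and 3 of 5 pericyte markers rose, the sum of the 5 going from 9.35 to 15.4 in WT to 33.7 to 34.3 in the double-mutant libraries. None of these 5 was at 0 in any library. Cox4i2 itself was at 0.321 to 0.482 in WT and at 0.743, 1.68 and 0.544 in the double-mutant libraries, on 4 to 36 fragments. The part of either in the change of Ndufa4l2 was not tested.

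Cox7a1 was at 3.26, 4.56 and 1.74 FPKM in WT, 4.47, 1.11 and 3.24 in Pb-ERG, 6.55 and 5.39 in Trp53pcR172H/- and 7.89, 5.97 and 4.84 in double-mutant prostate. The double-mutant libraries lay just above the WT range, but 0.83 (SE 0.357) did not pass (adjusted p = 0.114). Skeletal muscle markers moved the other way. Ckm, muscle creatine kinase, went from 6.40 to 6.82 in WT to 0.0376 to 0.101 in the double-mutant libraries, and 3 of the 5 skeletal muscle markers tested were lower. Cox8b, a muscle and brown fat isoform, was listed at 0 in WT replicates 1 and 3 and at 1.02 in replicate 2, and at 0.147 to 0.263 in the double-mutant libraries. The brown fat marker Ucp1 was at 0 in 6 of the 11 libraries and at most 0.793.

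**Figure D3:**
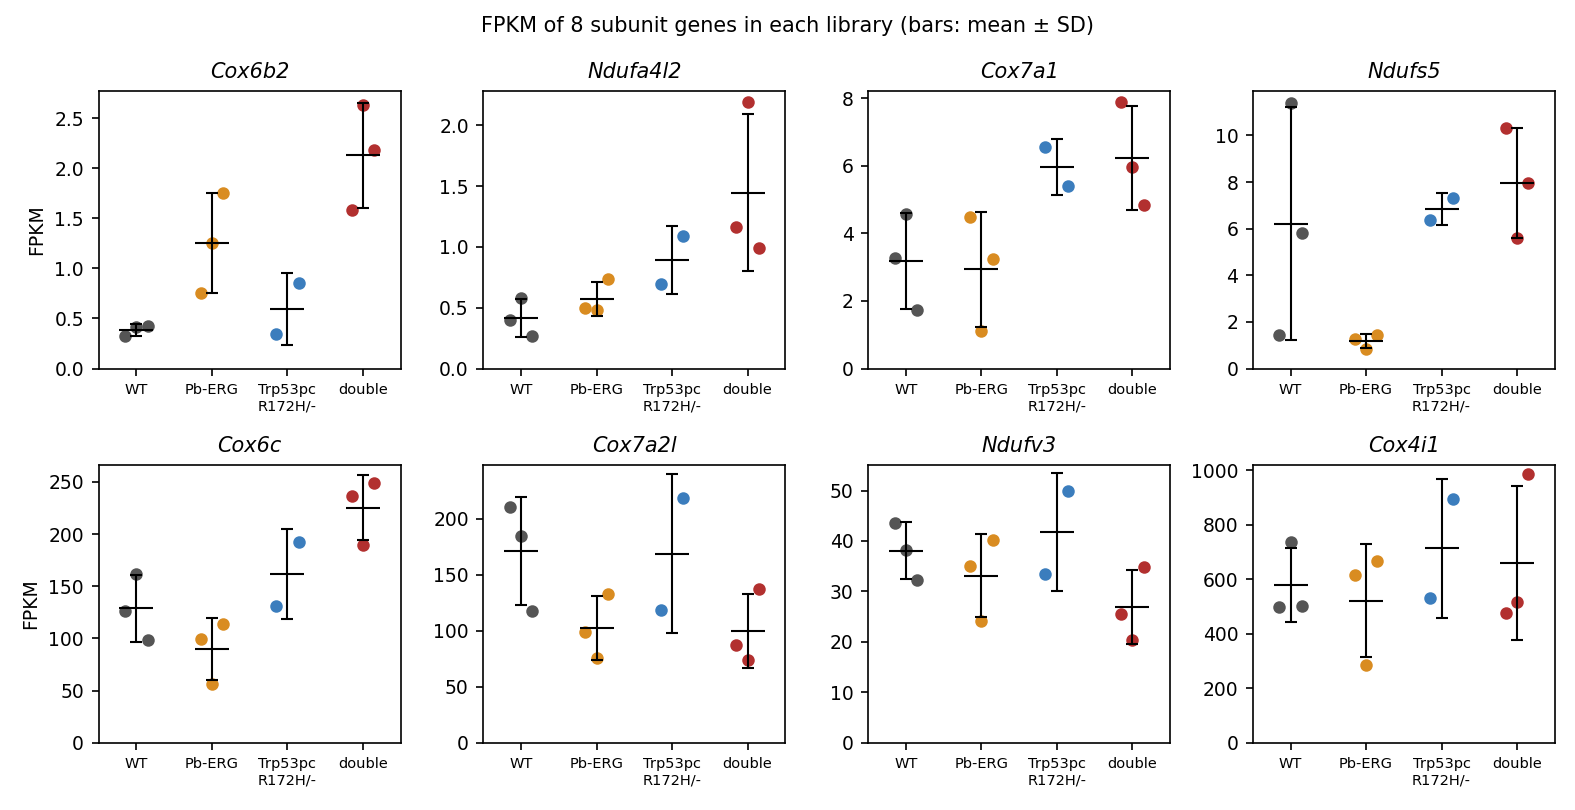
FPKM (y axis) of 8 members in each library by genotype (x axis), with the mean ± SD of each group. Cox6b2 is at 1.58 to 2.63 in the double-mutant libraries against 0.320 to 0.427 in WT, Ndufs5 is at 0.828 to 1.42 in Pb-ERG, and Cox4i1 overlaps between all groups.

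Pb-ERG alone was next compared with WT, to see what the transgene does without the Trp53 alleles. No member passed at an adjusted p under 0.05, where 1.90% of all genes did, and 4 of 64 members had an unadjusted p under 0.05, against 19.4% of all genes. The median log2 fold change of the 60 common subunits was -0.40, with 57 of the 60 below 0, while the median of all genes was 0.13. This median rested largely on 1 library: without Pb-ERG replicate 2 it was -0.11, against 0.19 for all genes. The subunits thus stayed below the median of all genes in that setting. The summed luminal markers were at 4015 to 7513 in Pb-ERG, below all WT libraries, and the smooth muscle markers at 315 to 1614. The lowest sum of both was in replicate 2. The median FPKM of the luminal markers, at 140 to 250 in Pb-ERG, overlapped that in WT, at 181 to 285. None of the 9 luminal or 8 smooth muscle markers passed in this comparison, and their part in the subunit values was not tested. The levels of the groups did not overlap in 11 of 64 members (17.2%), against 29.4% of all genes. Of these, 10 were lower in Pb-ERG and Cox6b2 was higher.

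The largest falls were those of Ndufs5 and Ndufb4, 2 accessory subunits of the membrane arm of complex I, the second of which was named after its values were seen. Ndufs5 (chromosome 4, 123712710 to 123718202) was at 1.25, 0.828 and 1.42 FPKM in Pb-ERG and at 1.44, 11.4 and 5.82 in WT, where the lowest WT library lay just above the highest Pb-ERG library. The log2 fold change of -1.46 (SE 0.466) did not pass (adjusted p = 0.129), but it did without WT replicate 1, in which case Ndufs5 was the 1 member called. Ndufb4 was at 10.6, 5.73 and 12.4 in Pb-ERG and at 25.2, 29.5 and 15.7 in WT with no overlap (-1.23, SE 0.381, adjusted p = 0.121). Each has 1 pseudogene copy by the rule given above. In contrast, the Rieske protein Uqcrfs1 was at 76.0, 52.2 and 98.1 in Pb-ERG and 61.2, 64.5 and 66.6 in WT (0.19, adjusted p = 0.732).

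Trp53pcR172H/- prostates were compared with WT on 2 libraries, with a median SE of 0.360 for the common subunits against 0.322 in the comparisons of 3 with 3. None of 64 members passed at an adjusted p under 0.05 and none had an unadjusted p under 0.05, where 1.61% of all genes had one, and 1 gene of 15583 (0.00642%) passed the adjusted threshold. The median log2 fold change of the common subunits was 0.20, with 52 of 60 above 0, against 0.01 for all genes. This followed the higher of the 2 libraries: Cox4i1, for example, was at 533 and 895 FPKM and Cox5b at 107 and 206 in replicates 1 and 2. Without replicate 2 the median was -0.07, and without replicate 1 it was 0.41.

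The double-mutant group was then compared with Pb-ERG, from which it differs by the Trp53 alleles and also, as said above, by the small RNA share of the libraries. Here 2 of 64 members (3.12%) passed, against 9.11% of all genes, and none passed at 0.001, where 0.475% of all genes did. The median of the common subunits was 0.48, with 54 of 60 above 0, against 0.08 for all genes. It was 0.19 without Pb-ERG replicate 2, where all genes had 0.02. With the small RNA class as a covariate it was also 0.19, but all genes had 0.20. The libraries did not overlap in 12 of 64 members (18.8%), all of them higher in the double-mutant group, against 24.5% of all genes. Ndufs5 was at 10.3, 5.61 and 7.97 FPKM in the double-mutant libraries, above all 3 Pb-ERG libraries. The difference was 2.03 on the log2 scale (SE 0.466, adjusted p = 0.0231). It rests on 167, 131 and 144 fragments in the double-mutant libraries and on 27, 37 and 31 in Pb-ERG. Cox6c was at 99.6, 56.3 and 114 in Pb-ERG, below all 3 double-mutant libraries, with 1.37 (SE 0.329, adjusted p = 0.0278). Neither call held without Pb-ERG replicate 1, without Pb-ERG replicate 2 or without double-mutant replicate 1 (adjusted p from 0.0542 to 0.0735). Cox6c was also lost without double-mutant replicate 3 (adjusted p = 0.0692) and with the compared groups alone (0.0942), and Ndufs5 with no filter (0.0661) and with libraries scaled to the common subunits (0.0555). With the small RNA class as a covariate the values were 1.04 (adjusted p = 0.582) for Ndufs5 and 0.82 (adjusted p = 0.557) for Cox6c. Ndufs5 varied as much within WT, from 1.44 to 11.4, as between these groups.

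The last pair, double-mutant against Trp53pcR172H/-, differs by the transgene. Cox6b2, described above, was the 1 member of 64 that passed (1.56%), against 14.8% of all genes at 0.05, and no member passed at 0.001, where 1.10% of all genes did. The median of the common subunits was -0.10 and that of all genes 0.22. Without Trp53pcR172H/- replicate 2 these medians were 0.15 and 0.16, and without replicate 1 they were -0.32 and 0.29. The interaction, which is the change from Pb-ERG to double-mutant minus the change from WT to Trp53pcR172H/-, was called for 0.468% of all genes and for no member, and 2 of 64 members had an unadjusted p under 0.05, against 10% of all genes. Those 2 were Ndufs5 with 1.62 (SE 0.698, adjusted p = 0.470) and Ndufab1 with 0.55 (SE 0.246, adjusted p = 0.493). The intervals of the interaction were wide, and for 3 of the 64 members they lay inside a 2-fold change, so the data cannot tell most subunits with an interaction from those without.

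Other genes of mitochondrial energy metabolism were set beside the subunits, from lists drawn up by function. In the double-mutant group against WT, none of the 17 nuclear-encoded ATP synthase genes passed (median log2 fold change 0.22) and neither did cytochrome c (Cycs, 0.29) nor cytochrome c1 (Cyc1, 0.55, adjusted p = 0.129). Cyc1 is a subunit of complex III that the choice by symbol left out. Of the 13 protein genes of mitochondrial DNA, 8 were tested and none passed, with a median of 0.25. The other 5, MT-CO2, MT-CO3, MT-ATP6, MT-ATP8 and MT-ND4L, were listed at no more than 0.715 FPKM in any library, where MT-CO1 was at 1494 to 3378, so their deposited values were not used as levels. MT-ND3 is among the 8 but was also low, at 0.114 to 1.92 FPKM on 1 to 21 fragments, and had the largest value of the 8 (0.53). Without it the median of the other 7 was 0.22, and their median deviation in Pb-ERG replicate 2 was 0.05. In the mitochondrial ribosome, 5 of 77 genes rose and 1 fell (median 0.11), where 25.3% of all genes passed, and in a list of 12 import and membrane genes none passed (median 0.15).

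Of 41 tested assembly factors, 2 fell and 1 rose, where 25.3% of all genes passed in this comparison. Surf1, needed to insert heme a into complex IV, was at 49.3, 43.7 and 48.6 FPKM in WT and at 22.7, 23.2 and 26.2 in the double-mutant libraries with no overlap (-0.95, SE 0.263, adjusted p = 0.0234). Coa5, another complex IV assembly factor, was at 27.7, 21.6 and 24.1 in WT and 11.3, 12.9 and 14.2 in the double-mutant libraries (-0.88, SE 0.197, adjusted p = 0.00848). Ttc19, which acts in complex III, had 0.55 (SE 0.181, adjusted p = 0.0474).

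Among 11 tested regulators of mitochondrial gene expression, 3 rose and 1 fell, against the same 25.3% of all genes. Gabpb1, a partner of the ETS factor Gabpa, went from 1.49, 1.22 and 1.12 in WT to 3.51, 3.16 and 2.91 (0.88, SE 0.168, adjusted p = 0.00375). Myc went from 9.41, 8.54 and 9.61 to 22.3, 21.6 and 13.5 (0.95, SE 0.228, adjusted p = 0.0120), and the coactivator Pprc1 also rose (0.76, adjusted p = 0.0396). Tfb1m, which methylates mitochondrial ribosomal RNA, fell from 10.1, 7.92 and 9.73 to 4.77, 4.91 and 4.02 (-0.88, SE 0.204, adjusted p = 0.0103). Nrf1 (0.40, adjusted p = 0.219) and Tfam, which packages mitochondrial DNA (0.14, adjusted p = 0.639), did not pass. In the tricarboxylic acid cycle 1 of 13 genes passed: Idh3a, the catalytic subunit of NAD-dependent isocitrate dehydrogenase, at 7.79, 7.70 and 7.54 in WT and 22.5, 14.9 and 22.7 in the double-mutant libraries (1.26, SE 0.212, adjusted p = 0.00185).

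Of 17 genes of glycolysis, 5 rose (Gapdh, Hk2, Pfkl, Hk1 and Aldoc) and 1, Ldhb, fell, against 25.3% of all genes, and the list median was 0.53, where that of all genes was 0.25. Gapdh was at 52.5, 39.7 and 51.2 FPKM in WT, 71.3, 111 and 131 in Pb-ERG, 64.8 and 58.6 in Trp53pcR172H/- and 191, 125 and 144 in double-mutant prostate (1.65 against WT, SE 0.281, adjusted p = 0.002). Ldhb, the lactate dehydrogenase subunit common in oxidative tissue, went from 24.4, 24.2 and 38.7 in WT to 5.55, 7.88 and 8.07 (-1.86, SE 0.391, adjusted p = 0.00614). In Pb-ERG the same list had a median of 0.52, with Aldoc higher and Ldhb lower, where 1.90% of all genes passed. The common subunits had -0.40 there, and -0.11 without Pb-ERG replicate 2, where all genes had 0.19. As median deviation from each gene's mean over the 11 libraries, glycolysis was at -0.06, 0.00 and 0.72 in Pb-ERG replicates 1 to 3. In WT it was at -0.16, -0.55 and -0.17. The double-mutant and Pb-ERG comparisons share the WT libraries. In Trp53pcR172H/- the glycolysis list had a median of -0.05.

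**Figure D4:**
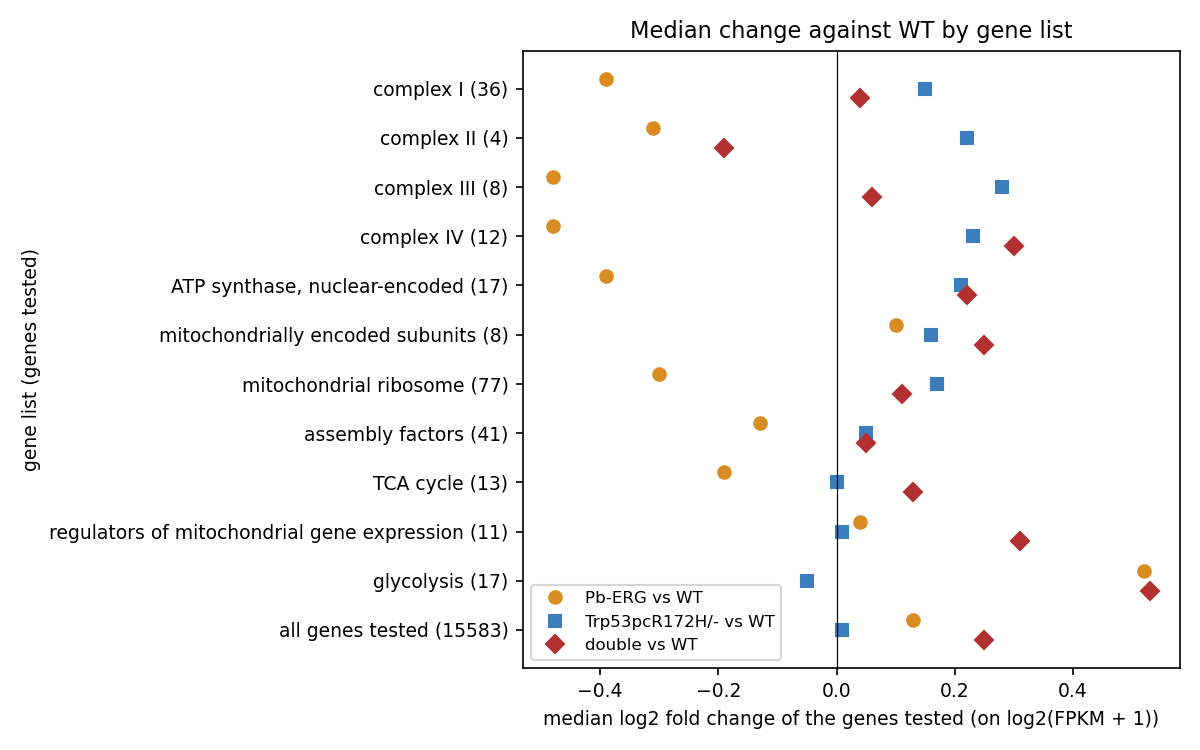
Median log2 fold change against WT (x axis, on log2(FPKM + 1)) of each gene list (y axis, genes tested in parentheses) in Pb-ERG, Trp53pcR172H/- and double-mutant libraries, which share the 3 WT libraries. Glycolysis lies at 0.52 and 0.53 in the groups with the transgene. Complexes I to IV lie between -0.48 and -0.31 in Pb-ERG and between -0.19 and 0.30 in the double-mutant group. Without Pb-ERG replicate 2 (not drawn), the complexes lie between -0.15 and -0.05 in Pb-ERG, and the median of all genes tested is 0.19.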

How the data were processed

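Whole prostates were flash-frozen, RNA was taken with an RNeasy kit, and TruSeq RNA v2 libraries, which do not mark strand, were sequenced as paired ends. The authors aligned the reads to GRCm38 with STAR (2.5.2b in the submitters' processing notes) and deposited gene-level FPKM from RSeQC, 1 table per library. The authors tested counts with DESeq2. As the files hold FPKM, limma 3.58.1 in R 4.3.3 was fitted here with trend on log2(FPKM + 1), with 4 group means over 11 libraries and 7 residual degrees of freedom, for the 15583 genes at FPKM 1 or more in at least 2 libraries. P-values were two-sided and adjusted by Benjamini-Hochberg over all genes tested, and calls were made at 0.05. The fit was tested on counts simulated gene by gene without shared library shifts, so that test does not bear on the subunits' common movement.

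Members and lists were chosen with earlier results of these data known. Genes named were the catalytic core subunits, the isoform pairs, Cox7a2l, up to 4 called rises and falls per comparison and the 2 lowest interaction p-values. Other members are said to be named after their values were seen, and 1 member is counted but not reported here by its own values. Fragments per locus, recovered from FPKM and total, give the depth. Replicate numbers are shared between groups. Same-numbered double-mutant and Pb-ERG libraries deviated together (r 0.126, 0.249 and 0.330), as did those of Trp53pcR172H/- and WT (0.234 and 0.351). Those of the other comparisons did not (r from -0.347 to 0.0786), and blocking on the number changed no count of members called. With 2 Trp53pcR172H/- libraries, their deviations from the group mean are equal and opposite, so the r values that involve them are not independent. Alternatives covered scaling, pseudocount, filter, block, small RNA class, test and each library left out. Pseudogene copies were matched with GENCODE M21 transcripts.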

Additional observations from a re-analysis of the deposited data

How the results depend on the processing

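The number of members called was small under every setting and depended on it. Double-mutant against WT gave 5 with trimmed-mean factors (Cox6b2 and Ndufa4l2 higher, Cox7a2l, Ndufv3 and Sdha lower), 1 with the small RNA class as a covariate or with the compared groups alone, 0 with a filter of FPKM 5 or at 0.001, and 1 to 3 with a library left out. Double-mutant against Pb-ERG gave 1 with no filter, with the compared groups alone or scaled to the common subunits, 0 with the class covariate or at 0.001, and 0 to 2 with a library left out. Double-mutant against Trp53pcR172H/- gave 0 with no filter, with a filter of FPKM 5, with the class covariate, with the compared groups alone, scaled to the common subunits or at 0.001, and 0 to 1 with a library left out. Pb-ERG against WT gave 0 to 1 with a library left out. Trp53pcR172H/- against WT and the interaction gave 0 under each setting run. The stricter filter removes Cox6b2 and Ndufa4l2, and the cause of the other differences was not tested. With the replicate number as a block, the numbers of members called stayed at 2, 0, 0, 2 and 1, and the median of the common subunits in Trp53pcR172H/- against WT was 0.28.

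Leaving out 1 library moved the median of the common subunits between -0.07 and 0.26 in double-mutant against WT, -0.62 and -0.11 in Pb-ERG against WT, -0.07 and 0.41 in Trp53pcR172H/- against WT, 0.19 and 0.66 in double-mutant against Pb-ERG, and -0.32 and 0.15 in double-mutant against Trp53pcR172H/-. Scaled to the common subunits, which sets their level by construction, the medians were 0.00 in Pb-ERG against WT and 0.01 in double-mutant against Pb-ERG.

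Some members that were not called changed sign in double-mutant against WT. With median-of-ratios factors the log2 fold changes were -0.08 for Uqcrfs1, -0.22 for Ndufv2, -0.10 for Cox4i1, -0.14 for Uqcrc1 and -0.12 for Sdhd. With trimmed-mean factors they were -0.14 for Uqcrfs1, -0.28 for Ndufv2, -0.16 for Cox4i1, -0.20 for Uqcrc1, -0.18 for Sdhd and -0.01 for Cox6b1. With the class covariate they were -0.26 for Ndufv2, 0.21 for Ndufs1, -0.29 for Cox4i1, -0.06 for Sdhd and -0.03 for Cox7a2. Ndufv2 had -0.06 when scaled to the common subunits, and Cox8b had 0.43 with a pseudocount of 0.1 and 0.56 with limma-voom on recovered fragments. With a library left out, the ranges were -0.03 to 0.29 for Uqcrfs1, -0.19 to 0.24 for Ndufv2, -0.23 to 0.03 for Ndufs1, -0.17 to 0.13 for Sdhb, -0.24 to 0.13 for Uqcrc2, -0.24 to 0.27 for Cox8b, -0.20 to 0.32 for Cox4i1, -0.02 to 0.22 for Uqcrc1 and -0.07 to 0.31 for Sdhd.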
